A study of Mus musculus with 2 samples.

Results

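Patrolling monocytes, also called nonclassical or Ly6C-low monocytes, were taken here as the cells of one heart single-cell library that passed a rule on 10 genes. The rule required at least 50 CPM (counts per 1000000 counts) of Csf1r, the receptor for macrophage colony-stimulating factor. It required under 200 CPM of Ly6c2, a surface antigen of classical monocytes, and under 200 CPM summed over C1qa, C1qb and C1qc, the complement genes of tissue macrophages. It also required at least 300 CPM summed over Ace, Treml4, Cd300e, Adgre4 and Ear2, and at most 25% of counts from mitochondrial genes. The members were therefore chosen by measured values of these genes, and their levels are given only as a description. The rule found 98 cells among the 878 of the library. They made up 11.4% (9.38 to 13.8, exact Clopper-Pearson interval) of the 857 cells that met the mitochondrial limit.

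All cells came from hearts of Cdh5-CreERT2;REFLEX mice that had received tamoxifen and then transverse aortic constriction (TAC), a narrowing of the aorta that overloads the left ventricle. Cdh5-CreERT2 is a tamoxifen-inducible Cre recombinase under a promoter of endothelial cells, and REFLEX is a reporter that, per the series record, marks interacting cells with GFP. Cells positive and negative for CD45, the common leukocyte antigen, were each sorted by GFP, and the 4 fractions were pooled into 1 transcriptome library and its hashtag library. The age and number of the mice and the time after surgery are not given in the sources used here, and there was no unoperated group. With 1 library nothing could be tested across animals: no p-value is given, and every interval covers counting error only. The rule divided the cells by measured genes, so genes that vary with these were bound to differ between members and other cells, and all such ratios are descriptions.

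Patrolling monocytes derive largely from classical, Ly6C-high monocytes. They need the nuclear receptor NR4A1 for their development and survival, and they crawl along the inner wall of blood vessels, where they take up particles and clear damaged endothelial cells. In the heart, as in other tissues, many of them sit inside vessels, so cells from a dissociated heart can include blood-borne ones. The labels do not say whether the hearts were perfused.

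Members were set against 3 groups of cells that passed the same mitochondrial limit. These were all 759 other cells, 80 classical monocytes (the same Csf1r and C1q limits with at least 200 CPM of Ly6c2), and 46 C1q macrophages (at least 200 CPM of the C1q genes). A further 166 B cells, with at least 300 CPM of Cd79a, Cd79b and Ms4a1 and under 50 CPM of Csf1r, served as cells that should lack myeloid genes. Members carried a median of 105902 counts (31826 to 371464) over 4354 genes, against 220409 counts in classical monocytes, 241197 in macrophages and 67868 in B cells. Their median mitochondrial share was 2.15%, and 3 members were above 10%. Each cell also has a tag name from the authors, but for most members named A953 and A965 it differs from the tag with most hashtag counts.

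The 5 genes that gave the rule its positive side are surface or secreted proteins of patrolling monocytes. Ace, the angiotensin-converting enzyme, ran from 0 to 2321 CPM per member with a median of 339.9, and 82 of 98 members had counts. Treml4, an immunoreceptor of the TREM family, had a median of 424 CPM (0 to 1903) and was found in 89 members. Cd300e, an activating receptor, was the most unevenly detected, with counts in 64 members and a median of 280.5 CPM (0 to 1932). Adgre4, an adhesion G protein-coupled receptor, stood at a median of 450.3 CPM (0 to 2914) with counts in 81 members. Ear2, a ribonuclease of the eosinophil-associated family, had a median of 448 CPM (0 to 3692) and counts in 72 members. No one of the 5 was present in every member. In B cells their pooled levels lay between 0.573 CPM for Cd300e and 4.64 CPM for Ear2.

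Summed over the 5 genes, the members ran from 302 to 7540.3 CPM with a median of 2559, so most lay far from the limit. The members just inside it had 302, 309 and 357 CPM, and the nearest cells outside had 297, 289.7 and 278. In all, 91 cells met every other condition and missed this one. For Ly6c2, 30 cells failed that condition alone, with the nearest at 248 CPM against 176 in the highest member. Thus 30 of the 80 classical monocytes also reached 300 CPM of the 5 genes. The C1q condition alone turned away 6 cells and the Csf1r condition 35.

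**Figure D1:**
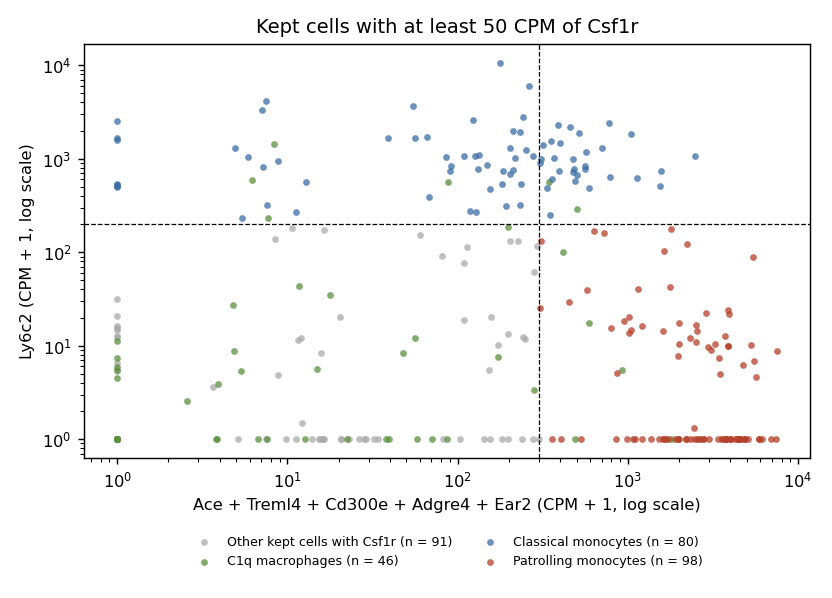
Each point is 1 cell with at least 50 CPM of Csf1r, placed by the sum of Ace, Treml4, Cd300e, Adgre4 and Ear2 (x axis, CPM + 1, log scale) and by Ly6c2 (y axis, CPM + 1, log scale); dashed lines mark 300 and 200 CPM. The 98 patrolling monocytes fill the lower right, and 30 of the 80 classical monocytes lie to the right of the vertical line.

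The members were described by 6 markers, the 5 rule genes and Nr4a1, counting a marker as present from 50 CPM. The 5 rule genes chose the members, so their presence cannot check the label. All 6 markers were present in 41 members, 5 in 22, 4 in 11 and 3 in 10. The remaining 14 members had fewer than 3, and in 12 of these Treml4 was the only one of the 5 rule genes present. These 14 cells carried RNA of neutrophil genes. The 10 neutrophil markers summed to a median of 20817 CPM there (268 to 96946) and of 239 CPM in the other 84 (86.2 to 147021), so the ranges overlapped. Ly6g, Camp, Ngp and Ltf, which mark neutrophils and their precursors, were each under 5 CPM over all members. S100a8, a calcium-binding protein abundant in neutrophils, had a median of 10925 CPM there (102 to 47242), against 103 CPM in the other 84. Csf3r, the receptor for granulocyte colony-stimulating factor, stood at 1508 CPM against 8.38. Genes of patrolling monocytes outside the rule went the other way. The median of Cd36 was 0 CPM in the 14 and 729 CPM in the 84, and that of Gngt2 49.9 against 2257.

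Counted by neutrophil markers, 14 members had at least 4 of 10 at 50 CPM or more, and 10 of them were among the 14 cells with few patrolling markers. The rule thus found 80 cells with neither feature and 18 with at least one, for which the data went against the label. The name patrolling monocytes is kept below for all 98 cells. Leaving out the 14 cells of few patrolling markers was an alternative chosen after seeing the data. Its values are printed for some of the genes and lists where they moved by more than 1.5 times or changed a call. A value printed without this alternative may also have changed. The source of the neutrophil RNA was not tested.

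**Figure D2:**
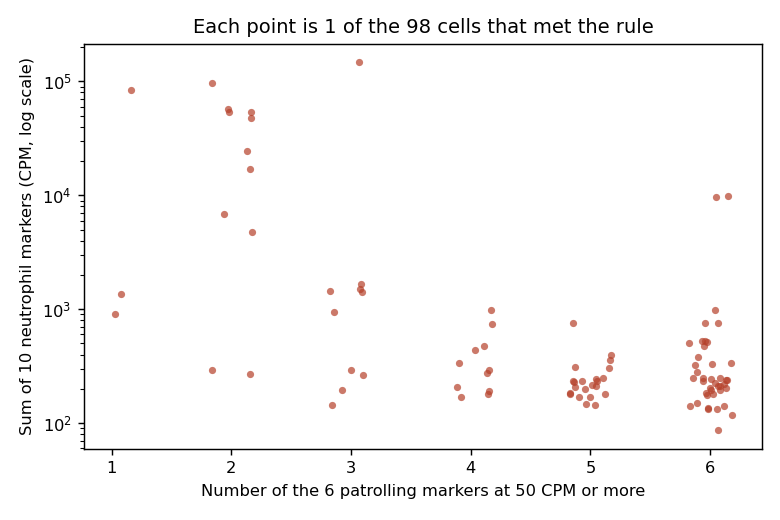
Each point is 1 of the 98 members, placed by how many of the 6 patrolling markers it held at 50 CPM or more (x axis, points spread sideways) and by the sum of 10 neutrophil markers (y axis, CPM, log scale). Cells with 1 or 2 patrolling markers include most of the highest neutrophil sums, while the median over the 84 cells with at least 3 markers is 239 CPM.

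Apart from neutrophil and classical genes, markers of other cell types were low. At least 3 of the 10 neutrophil markers reached 50 CPM in 38 members and in 373 of all kept cells. The neutrophil list had a pooled sum of 5112 CPM in members and 20916 in all other cells, while the 6 patrolling markers summed to 4149.98 CPM in members. No member held 3 or more markers of macrophages, dendritic cells, B, T or NK cells, fibroblasts, pericytes, cardiomyocytes, platelets, erythroid cells or mast cells, and 32 held at least 3 of 8 classical markers. The blood endothelial list of 18 genes summed to 297 CPM in members and 70.2 CPM in the other cells, with member cells between 0 and 4766. Of the 18 genes 3 stood at 50 CPM or more, namely Fabp4 at 125 CPM, Pecam1 at 83.3 CPM and either Flt1, Tek or Vwf. Fabp4 and Pecam1 are also made by myeloid cells. The source of the endothelial RNA was not tested. Endothelial Cdh5, the gene whose promoter drives the Cre, stood at 0.171 CPM and Kdr at 0.0855 CPM, 13 of the 18 genes were under 5 CPM, and no member held 3 of them at 50 CPM.

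NR4A1, the nuclear receptor that patrolling monocytes depend on, was no part of the rule. Nr4a1 reached 1153 CPM in members (1134 to 1173, exact Poisson interval) against 398 in all other cells, 259 in classical monocytes, 373 in macrophages and 664 in B cells. Per cell it ran from 0 through a median of 925 to 4029.98 CPM, and 97 of 98 members had counts. Medians were 202 CPM per classical monocyte and 298 CPM per macrophage, so the cells overlapped while the centres lay apart. The ratio was 2.89 to all other cells (2.84 to 2.95, exact Clopper-Pearson interval) and 4.46 to classical monocytes (4.31 to 4.61). Within cells of a single tag name it lay between 2.22 and 3.86. Nr4a1 is also an immediate early gene, induced when tissue is dissociated. Of the 22 immediate early genes, Nr4a1 alone was at least 2 times higher than in all other cells and 5 were at least 2 times lower (Egr1, Egr2, Egr3, Myc and Nr4a3). Over all genes 6.34% were that much higher and 16.4% that much lower. Whether dissociation contributed to the Nr4a1 level was not tested. Against classical monocytes 3 of the 22 were higher (Dusp2, Jun and Nr4a1) and 3 lower, with a median log2 ratio of 0.60 beside 0.14 over all genes. In that comparison 17.6% of all genes were higher and 12.2% lower. The summed level of the 22 genes was 13528 CPM in members, 8161 in classical monocytes, 14323 in macrophages and 11568 in all other cells. Fos stood at 1269 CPM against 1109.7, and Egr1 at 93.8 against 298, or 53.4 without the 14 cells of few patrolling markers.

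**Figure D3:**
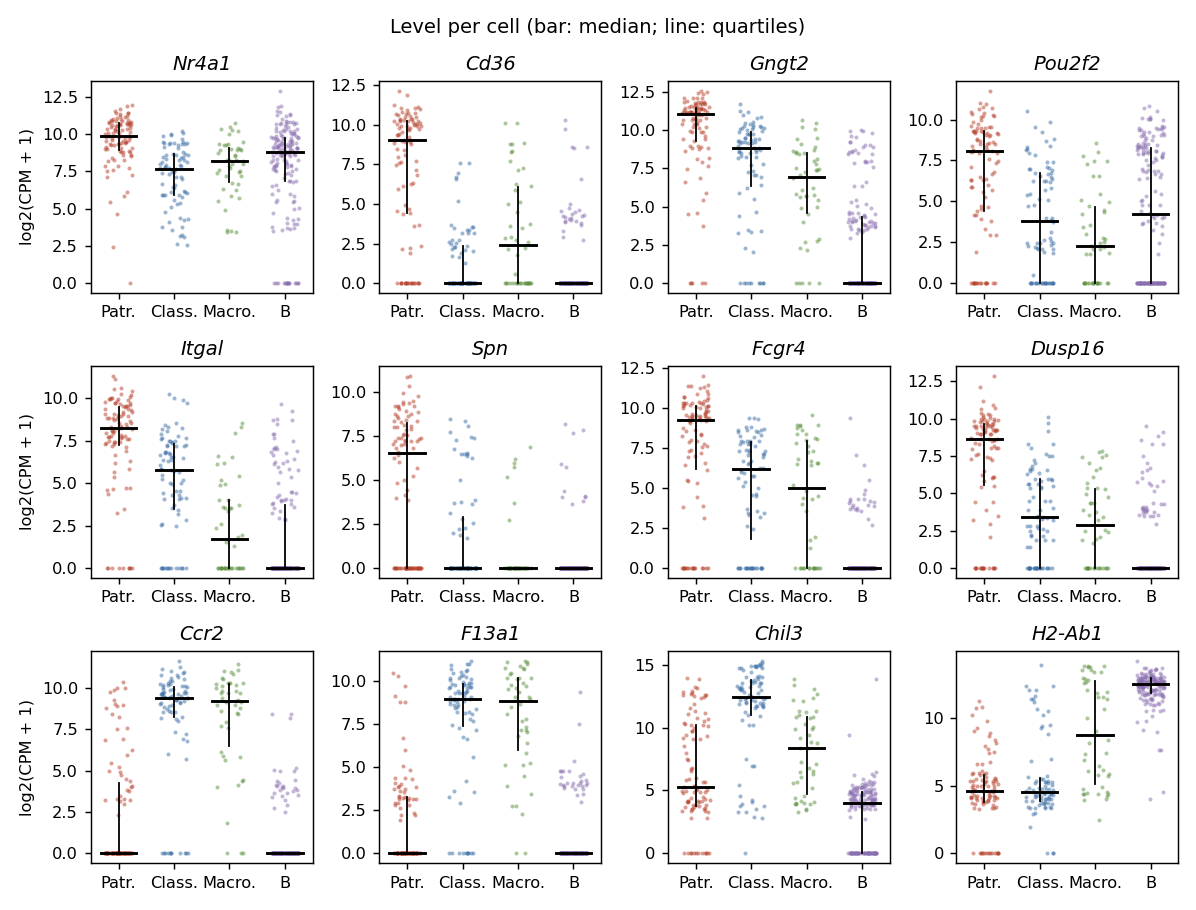
Level of 12 genes in single cells (y axis, log2 of CPM + 1) of 98 patrolling monocytes (Patr.), 80 classical monocytes (Class.), 46 C1q macrophages (Macro.) and 166 B cells (B); each point is 1 cell, the bar is the median and the line spans the quartiles. Nr4a1, Cd36, Gngt2, Pou2f2, Itgal, Spn, Fcgr4 and Dusp16 have their highest median in patrolling monocytes, while Ccr2, F13a1 and Chil3 are higher in classical monocytes and H2-Ab1 in B cells and macrophages.

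A list of 30 transcription factors of monocyte development held 9 that were at least 2 times higher in members than in all other cells. Over all 18233 genes with at least 50 counts, 6.34% were that much higher and 16.4% that much lower. With 20 CPM added to both sides in place of 1, these counts became 290 genes higher and 271 lower, so that 51.7% of calls were higher in place of 27.9%. Next to Nr4a1, the higher factors were Pou2f2, Tcf7l2, Klf4, Zeb2, Stat3, Cebpb, Id2 and Klf13. Pou2f2, an octamer-binding factor, had 393 CPM against 77.1 in all other cells and 89.4 in classical monocytes, with 0, 266 and 3502 CPM as lowest, median and highest member. Tcf7l2, a partner of beta-catenin in Wnt signalling, had 127 CPM against 16.3, of which 1 cell gave 21.9% of the counts. Klf4, which acts in monocyte differentiation, had 675 CPM against 162, 4.17 times as much. Cebpb, a C/EBP factor required for Ly6C-low monocytes, had 1749 CPM against 820.3, a ratio of 2.13. When each cell was weighted alike this last ratio was under 2, as it also was within the cells named A951 and A952. Batf3, Gfi1, Irf4, Maf and Nr4a3 were at least 2 times lower. With the 14 cells of few patrolling markers left out, Nr4a3 was no longer among them and Ikzf1 joined the higher factors, which made 10 higher and 4 lower.

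Promoters were searched for the sites of 4 families of these factors, in RefSeq windows of 300 bases on build GRCm38.p6 on both strands. The motif of NR4A monomers, AAAGGTCA, was in none of the 6 marker promoters (the 5 rule genes and Nr4a1) and in none of the 15 leading genes that had a promoter in the table, beside 1.51% of all 32851 promoters. The C/EBP motif TTGCGCAA (0.183% of all) and the KLF motif GGGTGTGG (3.56%) were in none of them either. The motif GAGGAAGT of PU.1, the myeloid factor encoded by Spi1, was in 3.20% of all promoters, in Adgre4 among the 6 and in Fcgr4 among the 15. Spi1 itself stood at 718 CPM in members and 463 CPM in all other cells. The letters say nothing of whether the factors bind. The 2 windows with a match are shown because these genes are a rule marker and a leading receptor; capitals mark the reverse complement of the PU.1 motif, at position -24 from the gene's start in Fcgr4 (chr1:171018676-171018975, plus strand) and at position 41 in Adgre4 (chr17:55749734-55750033, plus strand).
Fcgr4: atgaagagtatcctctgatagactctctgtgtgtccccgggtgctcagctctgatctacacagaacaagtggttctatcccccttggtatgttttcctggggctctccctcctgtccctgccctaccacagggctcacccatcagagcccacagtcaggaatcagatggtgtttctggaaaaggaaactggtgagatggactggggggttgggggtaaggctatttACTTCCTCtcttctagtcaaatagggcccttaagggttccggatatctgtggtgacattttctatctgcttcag
Adgre4: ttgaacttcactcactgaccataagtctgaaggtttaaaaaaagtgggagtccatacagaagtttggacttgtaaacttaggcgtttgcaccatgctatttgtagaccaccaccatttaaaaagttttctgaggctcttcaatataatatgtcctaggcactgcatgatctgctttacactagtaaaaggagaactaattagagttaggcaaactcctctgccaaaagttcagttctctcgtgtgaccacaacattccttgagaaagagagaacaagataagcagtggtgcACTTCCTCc

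Outside the rule, the genes that most set members apart from all other cells were metabolic, signalling and surface genes. They were taken by a fixed rule of size, the 25 highest ratios with 20 CPM added to both sides, among genes with at least 100 CPM in members and counts in at least 25% of them. Cd36, a scavenger receptor that takes up fatty acids and oxidised lipoproteins, came first with 717 CPM against 38.8. Its lowest, median and highest member had 0, 519 and 4605 CPM, and the ratio was 18.5 (17.8 to 19.2). At a depth thinned to 25000 counts, 73.5% of members and 11.4% of B cells had Cd36 counts. Eno3, a beta-enolase better known from muscle, had 229 CPM against 11.7, a ratio of 19.6 (18.2 to 21.0). Its counts came from 46 of 98 members, so the median member had none while the highest had 2073 CPM. Pparg, the lipid-sensing nuclear receptor, had 161 CPM against 8.34 and was found in 50 members, the highest with 1307 CPM. Fabp4, a fatty acid carrier, had 125 CPM against 10.99 with counts in 38 members.

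Among the signalling genes, Gngt2, a G protein gamma subunit, was the most even. Its members ran from 0 through 2069 to 6085 CPM, counts were found in 93 of 98, and the pooled level was 2077 CPM against 323, a ratio of 6.43 (6.32 to 6.54). Thinned to equal depth, 93.9% of members, 81.2% of classical monocytes and 25.9% of B cells had counts. Dusp16, a phosphatase of MAP kinases, had 556 CPM against 65.6 with a median member at 401 CPM. Sgk1, a kinase of cell survival and ion transport, had 533 CPM against 110.4, and Stk10, a kinase of the ezrin and moesin proteins, 376 against 73.8. Grk3, which desensitises G protein-coupled receptors, had 104 CPM against 9.98. Nupr1, a stress-induced nuclear protein, had 756 CPM against 164, and Hes1, a target of Notch, 409.6 against 88.8.

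The other leading genes were Ly6i, Ceacam1, Osgin2, Rbpms, Krt80, Abi3, Smpdl3b, Gfpt1, Myo1g, Spn, Itgal, Fcgr4, Pou2f2 and Tcf7l2. Their ratios lay between 5.06 for Itgal and 12.1 for Ly6i, a member of the Ly6 family that only 35 members carried. Without the 14 cells of few patrolling markers the 25 ratios were of like size, for example 20.8 for Cd36, 7.11 for Gngt2 and 5.58 for Pou2f2. Within the cells of each of 4 tag names all 25 remained above 2, with a lowest value of 2.65 for Spn.

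**Figure D4:**
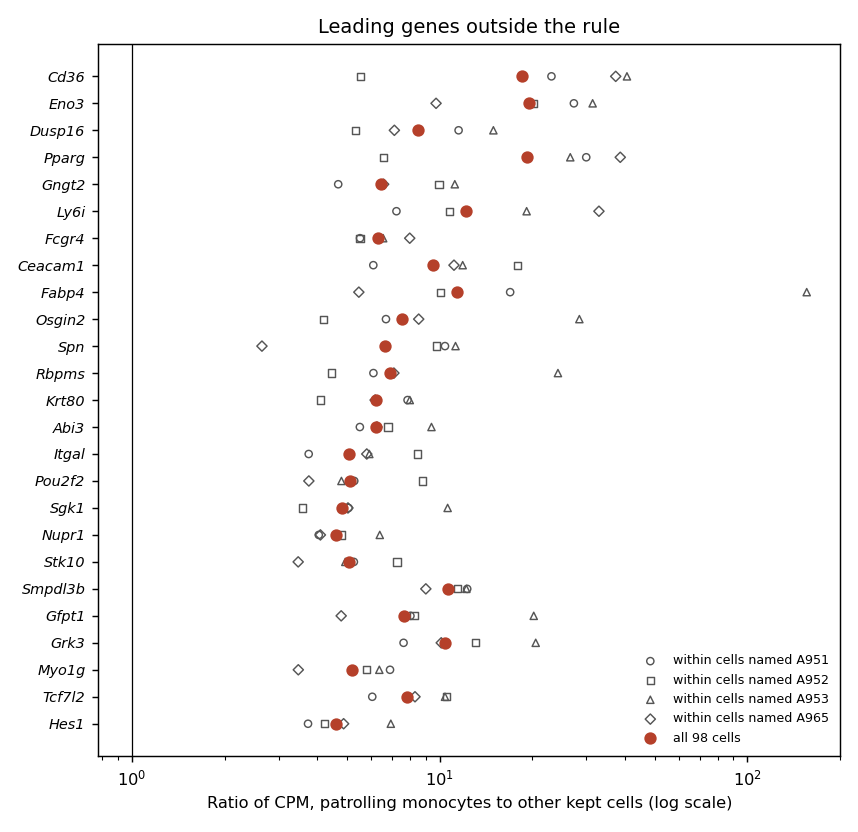
Ratio of CPM in patrolling monocytes to CPM in all other kept cells (x axis, log scale) for the 25 leading genes outside the rule. Filled points use all 98 cells and open symbols compare only cells with the same tag name; every symbol lies to the right of 2, and Fabp4 in cells named A953 lies farthest out.

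A list of 24 genes known for patrolling monocytes, none used by the rule, held 23 that were at least 2 times higher than in all other cells and none lower. The shares over all genes were 6.34% higher and 16.4% lower. The list had a median log2 ratio of 2.35 beside -0.15 over all genes. It was chosen with earlier results of these data known, so its counts are a description and no check of the label. Several of the leading genes are in it. The counts were the same without the 14 cells of few patrolling markers. The exception was Adgre5, the adhesion receptor CD97, at 697 CPM against 377 (a ratio of 1.85). Slc12a2, an ion cotransporter, had 75.7 CPM against 4.17, with 1 cell giving 22.6% of its counts. Pglyrp1, a peptidoglycan recognition protein, had 693 CPM against 263. Its ratio was under 2 when each cell was weighted alike and within the cells named A951. The same held for Cd9, a tetraspanin at 759 CPM against 365, and also within the cells named A952 and without the member with most Cd9 counts.

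Adhesion genes serve the crawling of these cells on endothelium. Of 25 genes for adhesion and integrin activation, 11 were at least 2 times higher than in all other cells and 2 were lower. The shares over all genes were 6.34% higher and 16.4% lower. Itgal, the alpha chain of the integrin LFA-1 on which crawling depends, had 440.1 CPM against 86.9, and its beta chain Itgb2 644 against 233. Itgal was found in 89 of 98 members, which ran from 0 through 309 to 2569 CPM, and the ratio to classical monocytes was 3.41 (3.25 to 3.58). Spn, the sialoglycoprotein CD43 used to stain patrolling monocytes, had 208 CPM against 31.4 with counts in 60 members. Itgax, the alpha chain of CD11c, had 129 CPM against 27.7, and Itga4 and Itgb1, the chains of VLA-4, had 296 against 123 and 261 against 122. The integrin activators Tln1, Rap1a, Rap1b and Apbb1ip were also higher, at ratios of 2.28, 2.13, 2.18 and 2.09. Pecam1, which leukocytes share with endothelium, had 83.3 CPM against 25.7. Itga6 was among the lower genes. Without the 14 cells of few patrolling markers the list had 12 genes higher and 2 lower. Against classical monocytes 9 of the 25 were at least 2 times higher and 2 lower, beside 17.6% and 12.2% over all genes. Apbb1ip was among these 9, while Tln1, Rap1a and Rap1b were not.

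Many receptors for chemoattractants were lower than in all other cells. Of 19 with enough counts, 2 were at least 2 times higher and 10 lower, beside 6.34% and 16.4% over all genes. The higher ones were S1pr5, the sphingosine-1-phosphate receptor that lets patrolling monocytes leave the bone marrow, and Cx3cr1, the fractalkine receptor that supports their survival. S1pr5 had 85.4 CPM against 3.43 in all other cells, 2.38 in classical monocytes and 0.210 in macrophages. It was found in 48 of 98 members, the highest at 898 CPM, and at equal depth in 42.9% of members and 0% of B cells. The ratio was 24.9 (21.9 to 28.4). Cx3cr1 had 197 CPM against 89.1 and was also present in macrophages at 169. Ccr2, the receptor that draws classical monocytes into tissue, had 129 CPM against 809 in classical monocytes and 803 in macrophages; the median member had 0 and the highest 1338 CPM. Ccr1 stood at 55.4 CPM against 254, and at 25.7 without the 14 cells of few patrolling markers, where 12 receptors were lower. Against classical monocytes 4 of 18 receptors were higher and 7 lower, or 3 and 8 without those cells, with a median log2 ratio of -0.21. Over all genes in that comparison 17.6% were higher and 12.2% lower. Against macrophages 4 of 16 receptors were higher and 5 lower, or 3 and 6 without those cells, with a median of 0.12. There the shares over all genes were 16.5% and 16.7%.

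Many genes of lipid uptake and export were higher than in all other cells, while macrophages had the higher summed level. Of 23 such genes, 12 were at least 2 times higher than in all other cells and 4 lower. The shares over all genes were 6.34% and 16.4%. Against macrophages 8 of the 23 were higher and 5 lower, beside 16.5% and 16.7% over all genes, with a median log2 ratio of -0.13. The list summed to 10641 CPM in members and 15623 CPM in macrophages. Besides Cd36, Pparg and Fabp4, the higher genes included Olr1, a receptor for oxidised LDL, at 202 CPM against 44.1, and Abcg1, a cholesterol exporter, at 147 against 40.9. Plin2, which coats lipid droplets, had 1192 CPM against 519, with counts in 96 of 98 members and a median of 1073 CPM. Nr1h3, the sterol receptor LXR alpha, had 19.1 CPM against 1.48, but only 11 members had counts and 1 cell gave 47.5% of them. Lower were Lpl, Fabp5, Cd163 and Stab1. Without the 14 cells of few patrolling markers Lpl was not, at 38.5 CPM against 75.7. Fabp5 had 99.2 CPM in all members and 35.4 CPM without those cells, against 256 in all other cells. Apoe did not pass the 2-fold limit at 5920.4 CPM against 3613. With cells weighted alike it did, with a log2 ratio of 1.56 in place of 0.71. Apoc2 and Apoc2l had nearly equal values (113 and 113 CPM), so their reads may be shared and each is uncertain.

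Receptors for antibody were led by Fcgr4, an activating Fc receptor for IgG2 antibodies. It had 754 CPM against 119.6 in all other cells and 167 in classical monocytes. Members ran from 0 through 611 to 4123 CPM with counts in 81 of 98, and the ratio was 6.30 (6.12 to 6.48). Of 16 genes of the Fc list, Fcgrt, the neonatal Fc receptor, at 131 CPM against 28.0, Fcer1g, the shared signalling chain, at 4618 against 2261, and the kinase Fgr at 392 against 175 were also at least 2 times higher. Fcer2a and Fcmr, receptors of lymphocytes, were lower. This made 4 of 16 at least 2 times higher and 2 that much lower, beside 6.34% and 16.4% over all genes. Fcgr3 did not differ by that much, at 556 against 599.6 CPM. Of 27 paired myeloid receptors, 10 were higher and 5 lower (6.34% and 16.4% over all genes), or 6 and 5 with cells weighted alike. Those higher included relatives of the rule gene Cd300e, with Cd300c2 at 714 CPM against 215, Cd300ld at 561 against 222 and Cd300a at 552 against 257. With cells weighted alike the log2 ratio of Cd300ld was 0.90 in place of 1.33, and it was also under 2-fold within the cells named A952 and A953. The lectin receptor Clec4a3 had 599 CPM against 178, and Ceacam1, an inhibitory adhesion receptor, 214 against 22.4. Close copies such as Pilrb1 and Pilrb2, both higher, could share reads, and Pilrb2 was under 2 times higher without the 14 cells of few patrolling markers. Trem2, a receptor of lipid-laden macrophages, was lower at 35.0 CPM against 95.5. Against classical monocytes 5 of 15 Fc genes were higher and 2 lower, or 3 and 1 without those 14 cells. Of the 27 paired receptors 6 were higher and 4 lower there, or 6 and 6 without those cells. Over all genes in that comparison 17.6% were higher and 12.2% lower. Fcer1g, Fgr, Cd300a and Clec4a3 were not at least 2 times higher than in classical monocytes.

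For the uptake of dead cells, 3 of 15 genes were at least 2 times higher and 5 lower than in all other cells. The shares over all genes were 6.34% higher and 16.4% lower. Tgm2, a transglutaminase, had 1146 CPM against 437, with counts in 96 of 98 members and a median of 932 CPM. Havcr2, the phosphatidylserine receptor TIM-3, had 279 against 66.2, and Itgav 43.6 against 18.3. Mertk, Axl, Gas6, Timd4 and Cd93 were lower. Mertk, the main such receptor of resident macrophages, had 2.17 CPM in members and 30.5 in macrophages, and Cd93 had 25.9 CPM against 81.7 in all other cells. Leaving out the 14 cells of few patrolling markers gave 0.730 and 12.3 CPM.

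Antigen presentation differed by class. None of 14 class II genes was 2 times higher and 11 were lower than in all other cells, with a median log2 ratio of -3.50. The shares over all genes were 6.34% higher and 16.4% lower. H2-Ab1 had 166 CPM against 3819 in macrophages and 5504 in B cells, with 0, 23.2 and 2407 CPM as lowest, median and highest member. H2-Aa had 146 CPM against 4432 in macrophages, and Ciita, the regulator of class II genes, 0.726 against 18.3. Classical monocytes lay in between, at 859.6 CPM of H2-Ab1. Cd74, the invariant chain, was 10.3 times lower than in all other cells. Of 16 class I genes, B2m alone was at least 2 times higher than in all other cells and none was lower. The higher share is near that over all genes. B2m had 9780.2 CPM against 4412, a ratio of 2.22 (2.20 to 2.23). All 98 members had B2m counts, from 351 through 9299 to 22296 CPM, and the ratio lay between 2.12 and 2.50 within tag names. H2-K1 and H2-D1 had ratios of 1.91 and 1.91. Without the 14 cells of few patrolling markers H2-K1 reached 2.05, and in class II Ctss, the protease cathepsin S, reached 2.08.

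Many secreted inflammatory mediators were lower than in all other cells. The list summed to 7430 CPM in members, 14332 in all other cells, 9895 in classical monocytes, 20040 in macrophages and 1221 in B cells. None of 24 cytokine and chemokine genes was 2 times higher than in all other cells and 15 were lower. The shares over all genes were 6.34% higher and 16.4% lower. The lower genes numbered 19 without the 14 cells of few patrolling markers. Ccl2, which draws monocytes, had 87.5 CPM against 479.8, Ccl3 106 against 438, and Cxcl2, which draws neutrophils, 1345 against 3896. The log2 ratio of Ccl2 was -0.69 with cells weighted alike, under 2-fold, in place of -2.44. For Cxcl2 the median member had 53.2 CPM and the highest 27826, and the pooled level without those cells was 696 CPM. Il1b did not pass the limit, at 2976 CPM against 3409 in all other cells and 2113 in classical monocytes, with counts in 95 of 98 members and a median of 1793 CPM. Ccl6 stood at 2158 against 2275. Among growth and vascular factors, Hgf (34.5 CPM), Lif (9.47 CPM) and Pdgfb (12.4 CPM) were at least 2 times higher, and 9 of 23 were lower, among them Igf1 at 0.598 CPM against 6.55 and Hbegf at 0.598 against 16.2. Tgfb1 had 403 CPM against 203, just under the limit, which it passed with cells weighted alike (a log2 ratio of 1.08). That weighting gave 5 higher genes in this list. Without the 14 cells of few patrolling markers Tgfb1 also passed the limit, and the list had 4 genes higher and 12 lower. Its receptor Tgfbr1 was higher at 165 CPM against 32.9, a ratio of 5.01.

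Of 22 complement and clotting genes, 1 was higher and 5 were lower, shares near those over all genes. The higher one was F10, coagulation factor X, at 208 CPM against 95.9; 48 members had counts, and its ratio was under 2 without the cell with most of them. With cells weighted alike 2 genes of the list were higher and 3 lower. Next to the rule gene Ace, the angiotensinogen gene Agt and the renin gene Ren1 were near 0, at 0.128 and 0.0855 CPM in members, against 0.101 and 0.0788 CPM in all other cells. Only 7 of 15 genes had enough counts, and Lnpep, the angiotensin IV receptor, was the one past 2-fold, at 211 against 94.2 CPM. Of 19 Notch genes, 4 were at least 2 times higher than in all other cells (Hes1, Nrarp, Jag1 and Adam10) and 2 lower (Dtx1 and Hey1). The shares over all genes were 6.34% higher and 16.4% lower. The median log2 ratio of the Notch list was 0.30, or -0.02 without the 14 cells of few patrolling markers. The Adam10 ratio was under 2 without the member with most of its counts, without the members that had 4 or more neutrophil markers and within the cells named A951, and it changed sign within those named A965, at a log2 ratio of -0.34. Nrarp, a feedback inhibitor of Notch, had 78.9 CPM against 7.70, but 27 members carried it and 1 cell gave 32.4% of the counts. Notch2, the receptor through which endothelial ligands act on these cells, had 98.4 CPM against 59.4.

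Classical monocytes are the nearest relatives of these cells. Of 12239 genes with enough counts, 17.6% were at least 2 times higher in patrolling monocytes and 12.2% lower, with a median log2 ratio of 0.14. With 20 CPM added these counts became 430 and 179, and the higher share of calls 70.6% in place of 59.0%. The list of 24 patrolling genes had 20 higher and none lower (median 2.16). Cd36 had 717 CPM against 14.5, a ratio of 49.5 (43.9 to 56.1), and Pparg 161 against 2.77, a ratio of 58.3 (44.2 to 78.6). Eno3, Pglyrp1, Dusp16, Cd9, Fabp4, Stk10, G0s2 and Pag1 completed the 10 leading genes. G0s2, a lipase inhibitor abundant in neutrophils, had 799 CPM against 141, and 339 CPM without the 14 cells of few patrolling markers.

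The 20 classical genes outside the rule held 13 that were at least 2 times lower than in classical monocytes and none higher (median log2 ratio -1.88). Fn1, the matrix protein fibronectin, had 41.6 CPM against 603, and Saa3, an acute phase protein, 28.1 against 749. F13a1, the clotting factor XIII A chain, had 77.7 CPM against 679, and the proteoglycan Vcan 37.8 against 274. Without the 14 cells of few patrolling markers Fn1 stood at 24.4, F13a1 at 38.1 and Saa3 at 15.8 CPM. The difference was not complete. Chil3, a chitinase-like protein of classical monocytes, had 2243 CPM against 11319.8; its median member had 38.0 CPM, its highest 15685, and 86 of 98 had counts. Lyz2, lysozyme, was present in all 98 members at a pooled 9689 CPM against 26581. Plac8 and Hp did not pass 2-fold, at 2541 against 4338 and 931 against 1646 CPM. Ly6a, Ly6a2, Ccl4, Ccr2, Hopx, Dmkn and Mt2 were the other genes lowest against classical monocytes.

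Interferon-stimulated genes were lower than in classical monocytes for 13 of 24 genes, and Irf1 alone was higher. Over all genes in this comparison 12.2% were lower and 17.6% higher. Isg15, a ubiquitin-like protein, had 92.0 CPM against 315, and Ifi27l2a 398 against 1012. Counts of several were few and uneven: 24 members had Isg15, and 1 cell gave 38.2% of its counts. Irf1, which class I genes respond to, had 254 CPM against 61.0. Class I genes were higher than in classical monocytes for 7 of 16 (B2m, H2-D1, H2-K1, H2-Q4, H2-Q6, H2-Q7 and Nlrc5) and lower for none; without the 14 cells of few patrolling markers Nlrc5 dropped out. H2-K1 had 1884 CPM against 695, a ratio of 2.71 (2.65 to 2.77). The H2-Q genes are near-identical copies and each is uncertain. Genes of survival and apoptosis were higher than in classical monocytes for 8 of 17 and lower for none, or lower for 2 (Bcl2l1 and Cflar) without those 14 cells. Against all other cells 1 was higher and 1 lower, beside 6.34% and 16.4% over all genes, or 2 and 2 without those 14 cells. Bcl2 then joined the higher genes and Cflar the lower ones. Against macrophages 3 were higher and 2 lower, beside 16.5% and 16.7% over all genes. Bcl2, an inhibitor of cell death, had 88.6 CPM against 5.76, a ratio of 15.3 (12.6 to 18.9), with counts in 37 of 98 members and 20.1% of them from 1 cell. Against all other cells, which include lymphocytes, its ratio was 1.90, and its log2 ratio 0.20 with cells weighted alike in place of 0.91. Birc3 had 411 CPM against 183, and Pmaip1, which promotes cell death, 358 against 150.1. The copies Bcl2a1a, Bcl2a1b and Bcl2a1d were all higher and may share reads.

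**Figure D5:**
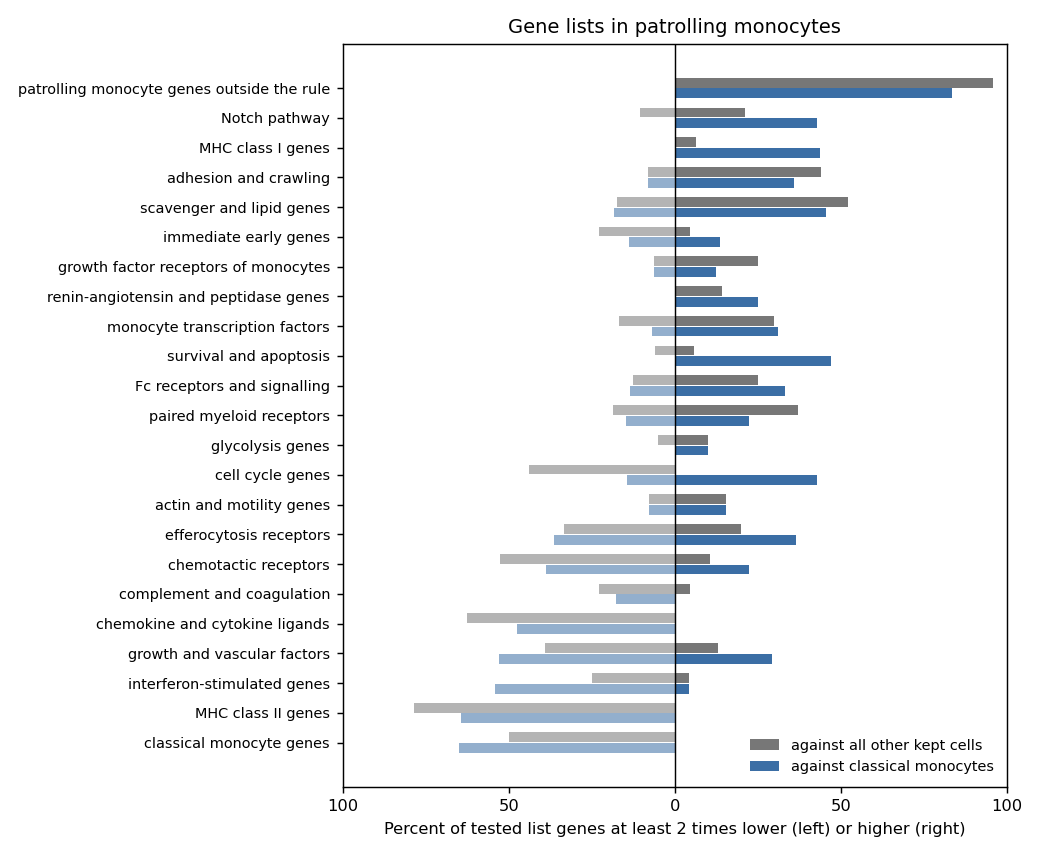
Share of the genes of 23 lists that were at least 2 times lower (bars to the left) or higher (bars to the right) in patrolling monocytes, as percent of the list's genes with at least 50 counts (x axis), against all other kept cells (grey) and against classical monocytes (blue). The patrolling list lies furthest right, at 23 of 24 and 20 of 24 genes, and the class II and classical lists have no bar to the right.

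Against C1q macrophages, 16.5% of 11743 genes were at least 2 times higher in patrolling monocytes and 16.7% lower, with a median log2 ratio of 0.02. The 10 leading genes were G0s2, S100a9, Pglyrp1, S100a8, Retnlg, Dusp16, Ifitm1, Itgal, Eno3 and Spn. For G0s2, S100a8, S100a9, Retnlg and Ifitm1 the pooled level lay far above the median member. S100a8 had 2300.2 CPM against 119.8, with a median member at 113 CPM. Without the 14 cells of few patrolling markers S100a8 stood at 1155 CPM, S100a9 at 1237 in place of 2047, Retnlg at 168 in place of 401 and Ifitm1 at 219.8 in place of 577. Itgal had 440.1 CPM against 37.5, a ratio of 11.7 (10.6 to 12.9), and Spn 208 against 9.59, a ratio of 21.7 (17.98 to 26.3). The patrolling list had 21 of 24 genes higher and none lower.

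Lowest against macrophages were Spp1, Pf4, Ccl12, Ccl7, H2-Aa, H2-Eb1, Mrc1, Ccl2, H2-Ab1 and Ms4a7. H2-Eb1 had 91.4 CPM, or 58.8 without the 14 cells of few patrolling markers, against 2787. Spp1, the matrix cytokine osteopontin, had 4.57 CPM against 2253 (488 times lower, 374 to 649.9). Mrc1, the mannose receptor of resident macrophages, had 1.45 CPM against 495, and Ccl7 1.97 against 1354. Apoe had 5920.4 CPM in patrolling monocytes and 11815 in macrophages. Adgre1, which encodes F4/80, was present in both at 159 and 285 CPM.

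Of 26 actin and motility genes, 4 were at least 2 times higher than in all other cells (Dock2, Msn, Myo1f and Myo1g) and 2 lower (Capg and Gsn). The shares over all genes were 6.34% higher and 16.4% lower. Msn, moesin, which ties the membrane to actin, had 828 CPM against 335, and Myo1g 282 against 54.1. Of 20 glycolysis genes, Eno3 and Hk1 were higher and Slc2a3 lower, with Slc2a3 at 19.7 CPM, or 6.17 without the 14 cells of few patrolling markers, where Hk1 was no longer higher. With cells weighted alike 4 were higher. Gapdh stood at 979.6 CPM against 821. No cell cycle gene was higher than in all other cells and 7 of 16 were lower, with Mki67, a marker of dividing cells, at 0.370 CPM against 13.3. Over all genes 16.4% were lower. Against classical monocytes 7 cell cycle genes had enough counts, of which 3 were higher (Mcm3, Mcm5 and Stmn1) and 1 lower. Over all genes in that comparison 17.6% were higher and 12.2% lower. The median log2 ratio of the 7 genes was 0.17. Ptprc, which encodes CD45, was found in 96 of 98 members at a pooled level of 1068 CPM.

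The members also varied among themselves. Across the 98 cells, the sum of the 5 rule genes had a Spearman correlation of 0.570 with the sum of the 24 patrolling genes outside the rule, 0.469 with class I genes, 0.434 with Nr4a1 and -0.436 with neutrophil markers. With total counts per cell it was 0.264 and with the mitochondrial share -0.202. These are descriptions over cells of 1 library, which share its depth and its preparation. Over the 315 cells with at least 50 CPM of Csf1r, the genes outside the rule whose level followed the 5-gene sum most closely, among 7349, were Ear1 (0.628), Gngt2 (0.608), Apoc2l, Apoc2, Pou2f2, Cd36, Smpdl3a, B2m, Ceacam1 and H2-K1 (0.538). Ear1 is a close copy of the rule gene Ear2 at only 2.67 CPM, so its reads may belong to Ear2.

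Each cell carried a tag name given by the authors. The members were named A951 in 38 cells, A952 in 20, A953 in 10, A965 in 28 and doublet in 2. They made up 12.0% of kept cells named A951 (8.65 to 16.1), 14.9% of A952 (9.36 to 22.1), 8.77% of A953 (4.29 to 15.5) and 11.3% of A965 (7.67 to 15.97). These shares describe cells of 1 pool of sorted fractions. Their intervals cover counting error only and do not compare the tag names. No source used here says which sorted fraction a tag stands for, so members with and without GFP label could not be compared. All 878 cell barcodes were in the hashtag library. The tag with most hashtag counts matched the name in 38 of 38 members named A951 and 19 of 20 named A952, but in 1 of 10 named A953 and 4 of 28 named A965. The label gene mCherry, which codes for a red fluorescent protein, had 492 CPM in members, 502 in classical monocytes, 416 in all other cells and 192 in B cells, with a range of 0 to 2070.3 CPM per member and a median of 395.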

How the data were processed

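One transcriptome library and its hashtag library were measured. Per the authors' deposited table, transcriptome values are estimated counts (expected counts) per gene and cell, raw, for 878 cells and 31192 genes; whole numbers make up 69.8% of the nonzero entries. The deposited hashtag table holds counts of each tag per barcode, all whole. The submitters' processing notes name the mouse build GRCm39, STAR, R 4.3.1, cutadapt 4.1 and STARsolo 2.7.10b. Neither labels nor headers say whether molecules or reads were counted, and if reads, the intervals are too narrow.

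Counts were summed over cells, divided by the group's total and scaled to CPM (Python 3.11.15, numpy 2.4.6, pandas 2.3.3, scipy 1.17.1). Genes with at least 50 counts over both sides were compared, without the 10 rule genes. A gene was called at a ratio of 2 with 1 CPM added to both sides, and log2 ratios use the same addition. Intervals are 95% exact Poisson or Clopper-Pearson. Rules named the 25 highest and 10 lowest ratios to all other cells (20 CPM added; at least 100 CPM and 25% of members for high genes, at least 200 CPM in the other cells for low ones), the 10 highest and lowest against the other groups, up to 5 genes by level and 3 by ratio from each of 23 gene lists, and the 10 genes most like the 5-gene sum. Genes named beyond these in the text were chosen after their values were seen. The members and lists were chosen with earlier results of these data known. Detection shares used cells thinned to 25000 counts. No doublet caller was run, and cells the authors named doublet were kept. The calculation was tested on simulated Poisson counts with known ratios: for members against all other cells over 18243 genes, genes made 4 times higher had a median ratio of 4.00. Of these 94% were called, and 64% of genes made 4 times lower. A few listed genes are not reported here.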

Additional observations from a re-analysis of the deposited data

How the results depend on the processing

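Counts of called genes over all genes tested stayed within 1.5 times under other limits of the rule (10% mitochondrial counts, a marker sum of 600 or 150 CPM, 50 CPM of Ly6c2 or of the C1q genes), without cells named doublet, with each cell weighted alike, with no filter on low counts, and with only members that held at least 3 of 6 patrolling markers or fewer than 4 neutrophil markers. The last 2 alternatives were chosen after seeing the data. Adding 20 CPM changed them: against all other cells 290 genes were higher and 271 lower (as reported, 1156 and 2988), against classical monocytes 430 and 179 (2153 and 1495), and against macrophages 467 and 382 (1937 and 1964). By construction, the larger addition shrinks ratios of low genes. Of 46 counts of higher or lower genes per list against all other cells, 16 moved by over 1.5 times under at least 1 alternative. With cells weighted alike these were higher paired receptors (6 in place of 10), higher interferon-stimulated genes (4 in place of 1), higher growth factors (5 in place of 3), higher glycolysis genes (4 in place of 2), lower complement genes (3 in place of 5), and 5 counts that rose from 0 to 1 or from 1 to 2. With fewer than 4 neutrophil markers, 3 transcription factors were lower in place of 5.

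Of 185 named genes, 106 were past 2-fold against all other cells. Of these, 8 (Ccl2, Ccl9, Ccr2, Cd300ld, Cd9, Cebpb, Cfp and Pglyrp1) fell under 2-fold when cells were weighted alike, 3 (Adam10, Cd9 and F10) without the member with most counts of that gene, and 18, 11, 8 and 7 within the cells named A951, A952, A953 and A965. Log2 ratios of 7 genes changed sign within 1 tag name: Nr4a3 within A951 (0.088), Hopx within A952 (0.96), Cd93 (0.36), Irf1 (-0.38) and Ms4a7 (0.33) within A953, and Adam10 (-0.34) and Cfp (0.000158) within A965. The cause was not tested, and A953 held only 10 members. No paired analysis was possible because there was 1 transcriptome library. Depth limits genes of few counts: with 98 cells and a median of 105902 counts, a level near 1 CPM rests on few counts in all.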
